A study of Homo sapiens with 4 samples.

Results

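Subtelomeric EZH2 peaks were the rows of the deposited peak lists whose midpoint lay within 2 Mb of a chromosome end on chromosomes 1 to 22, with chromosome 19 and the short-arm ends of chromosomes 13, 14, 15, 21 and 22 left out. They were chosen by position alone, at 37 ends of 21 chromosomes, and numbered 539 of 35016 peaks in the H3.1-K27M list (1.54%) and 792 of 31077 in the H3.1-WT list (2.55%). The source was HEK293, a long-established line derived from human embryonic kidney, transduced with a lentivirus and induced with doxycycline at 1 µg/ml to express an H3.1-K27M or an H3.1-WT histone. The titles of the H3.1-K27M libraries read H31, and the genotype label was followed for them. The labels name no change to the histone genes that HEK293 cells carry themselves, in either genotype. CUT&RUN uses an antibody to bring a nuclease to a chromatin protein, so that the DNA around that protein is cut free and sequenced. It was run on 200000 cells per reaction, with 1 EZH2 library and 1 control library (anti-rabbit HRP, secondary antibody alone) per genotype. With 1 EZH2 library per genotype there is no replicate error, and the genotypes were compared without a test. The lists hold no read counts, so depth is unknown, and what differs between them are the called peaks, which need not follow the amount of EZH2 on DNA.

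PRC2 is a Polycomb complex whose enzyme, EZH2, adds methyl groups to histone H3 at lysine 27, and K27M puts a methionine in the place of that lysine. In mammalian cells PRC2 is known to occupy CpG-rich promoters of silent developmental genes, and several such genes lie close to chromosome ends. The outermost bands of human chromosomes are mostly light in Giemsa staining, which marks GC-rich and gene-rich DNA, and they border the telomere repeats and blocks of duplicated sequence. Here 94.0% of the 74 Mb in the windows was light-stained, and 501 of the H3.1-K27M peaks and 746 of the H3.1-WT peaks lay in light bands.

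Bands at chromosome ends are known to carry developmental genes, among them FOXQ1, FOXF2 and FOXC1 (forkhead factors) in 6p25.3, ADCYAP1 (the precursor of the neuropeptide PACAP) in 18p11.32, IRX4 (an Iroquois homeobox factor of the heart) in 5p15.33 and DMRT1 (a factor of testis development) in 9p24.3. These 4 bands were chosen with the peaks known, and each held a peak among the 6 of highest fold enrichment at H3.1-WT ends. That match is therefore no result about developmental genes. No annotation of hg19, the build of the peaks, was used here, so no peak was assigned to a gene. The RefSeq table of GRCh38.p14 served for names, and all 25 symbols looked up in it lay on the chromosome of their band. The 250 bases before the outermost start that RefSeq lists for each of these 4 genes are printed here to show their CpG content, which differed between them. CpG dinucleotides are in capitals, each sequence runs 5′ to 3′ on the gene's strand, and positions are in GRCh38.p14 and cannot be set against the hg19 positions of the peaks.
FOXQ1 (chr6:1311848-1312097, plus strand): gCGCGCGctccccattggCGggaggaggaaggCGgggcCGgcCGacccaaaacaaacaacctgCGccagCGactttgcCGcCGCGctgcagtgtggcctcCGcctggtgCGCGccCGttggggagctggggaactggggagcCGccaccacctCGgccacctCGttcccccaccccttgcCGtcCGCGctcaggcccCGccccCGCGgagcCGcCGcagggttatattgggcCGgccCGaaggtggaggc
ADCYAP1 (chr18:904621-904870, plus strand): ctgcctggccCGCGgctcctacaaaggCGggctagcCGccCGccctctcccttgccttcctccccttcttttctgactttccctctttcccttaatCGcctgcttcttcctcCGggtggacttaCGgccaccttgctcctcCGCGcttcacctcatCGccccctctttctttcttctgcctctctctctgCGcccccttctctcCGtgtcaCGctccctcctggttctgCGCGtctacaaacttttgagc
IRX4 (chr5:1887180-1887429, minus strand): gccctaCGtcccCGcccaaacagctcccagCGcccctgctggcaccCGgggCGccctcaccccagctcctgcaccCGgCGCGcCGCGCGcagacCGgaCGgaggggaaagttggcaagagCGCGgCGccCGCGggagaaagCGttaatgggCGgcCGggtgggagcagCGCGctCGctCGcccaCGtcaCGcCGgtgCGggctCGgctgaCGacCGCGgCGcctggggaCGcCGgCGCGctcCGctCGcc
DMRT1 (chr9:841447-841696, plus strand): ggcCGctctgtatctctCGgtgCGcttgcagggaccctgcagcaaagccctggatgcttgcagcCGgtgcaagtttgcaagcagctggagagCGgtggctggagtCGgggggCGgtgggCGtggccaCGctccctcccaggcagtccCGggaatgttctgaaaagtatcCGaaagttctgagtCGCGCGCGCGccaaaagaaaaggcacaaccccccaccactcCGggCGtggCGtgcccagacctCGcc
The IRX4 stretch held 40 CpG, the FOXQ1 stretch 29, the DMRT1 stretch 20 and the ADCYAP1 stretch 16, against a median of 11 over 35116 RefSeq promoters. Of those promoters 2.16% held at least as many CpG as IRX4, 14.1% as FOXQ1, 32.4% as DMRT1 and 41.0% as ADCYAP1. These counts describe the reference sequence and say nothing of where EZH2 was bound.

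The first comparison asked how densely chromosome ends carried EZH2 peaks relative to the rest of the same chromosomes, called the interior here. Strong peaks, those reaching a −log10 q of 5, were denser at chromosome ends in both lists. Of the whole lists, 1.87% of H3.1-K27M peaks and 6.78% of H3.1-WT peaks were strong. In the H3.1-K27M list there were 0.541 strong peaks per Mb at the ends and 0.1998 per Mb in the interior, from 40 and 549 peaks. In the H3.1-WT list there were 1.57 and 0.658 per Mb, from 116 and 1809 peaks. Density at the ends was thus 2.71 times that of the interior in H3.1-K27M cells, and 2.38 times in H3.1-WT cells. Since the ends are mostly light-stained, the same was computed within light bands alone, where the quotients were 2.46 for H3.1-K27M and 2.0004 for H3.1-WT.

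Weak peaks did not share this pattern, and over all peaks the quotients moved to the level of the interior or below it. The H3.1-K27M list had 7.28 peaks per Mb at the ends and 9.91 in the interior, a quotient of 0.735, and the H3.1-WT list had 10.7 and 9.99, a quotient of 1.07. Within light bands these quotients were 0.942 and 1.05. The quotient rose with each higher minimum of −log10 q. At 2 it was 1.12 in H3.1-K27M cells and 1.43 in H3.1-WT, at 3 it was 1.90 and 1.86, and at 10 it was 3.59 and 3.16. In the H3.1-K27M list the direction therefore depends on whether the weakest calls are counted.

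**Figure D1:**
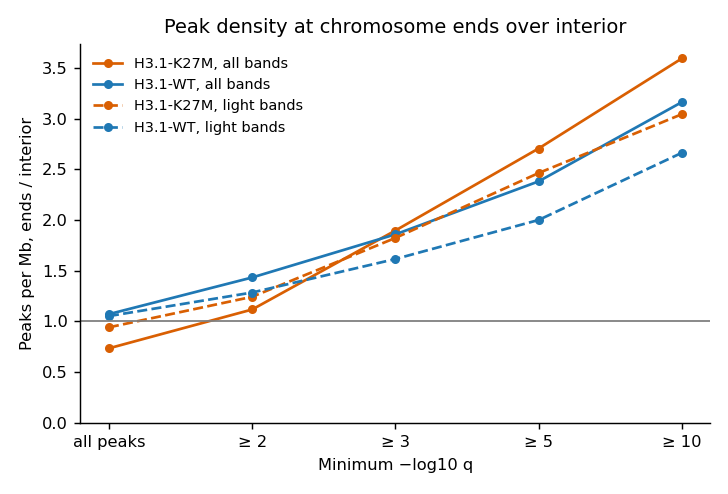
Peaks per Mb at chromosome ends divided by peaks per Mb in the interior of the same 21 chromosomes (vertical axis), by the minimum −log10 q of the peaks counted (horizontal axis). Orange is H3.1-K27M, blue H3.1-WT, solid lines all bands and dashed lines light bands. All 4 lines climb, the H3.1-K27M line over all bands from 0.735 to 3.59 and the H3.1-WT line from 1.07 to 3.16.

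As shares of peaks, 7.42% of H3.1-K27M peaks at chromosome ends were strong (95% Wilson interval 5.50% to 9.95%), against 2.02% in the interior (1.85% to 2.19%). In H3.1-WT the share was 14.6% at the ends (12.4% to 17.3%), against 6.59% in the interior (6.30% to 6.89%). The intervals take each peak as independent and hold counting error alone. Peaks under a −log10 q of 2 made up 62.0% of H3.1-K27M peaks at the ends and 74.996% in the interior, and 44.3% and 58.4% in H3.1-WT. Fold enrichment, the authors' own value per peak, had a median of 3.43 at the ends and 3.36 in the interior in H3.1-K27M, and of 3.59 and 3.42 in H3.1-WT. Median width was 788 bases at the ends and 813 in the interior in H3.1-K27M, and 894 and 775 bases in H3.1-WT. Peaks of at least 5000 bases made up 3.66% of the H3.1-WT peaks at the ends (29 peaks) and 1.72% in the interior. In H3.1-K27M they made up 2.78% (15 peaks) and 2.48%.

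The next comparison set the genotypes side by side at the ends. The H3.1-K27M list held fewer peaks there at each minimum of −log10 q, while in the interior the total numbers were nearly equal. In the weakest class, a −log10 q from 1 to 1.5, the ends held 179 H3.1-K27M and 181 H3.1-WT peaks and the interior 11856 and 8572. From 1.5 to 2 the ends held 155 and 170 and the interior 8576 and 7444. The surplus of weak H3.1-K27M peaks in the interior was thus not present at the ends. Interior bands differed, however. Over all peaks, the darkest-stained interior bands had 17.8 H3.1-K27M and 11.9 H3.1-WT peaks per Mb, and light interior bands 7.65 and 10.2. The windows hold no band of that darkest class, and these weak classes were not split by band. The ratio of peak numbers, H3.1-K27M over H3.1-WT, was 0.681 at the ends (conditional exact 95% interval 0.609 to 0.760, counting error only) and 0.993 in the interior (0.976 to 1.01). Covered length, the number of bases in peaks, was 0.713 Mb in H3.1-K27M and 1.09 Mb in H3.1-WT, with a ratio of 0.656, against a ratio of 1.07 in the interior. The gap was smaller within light bands, where the ratio of peak numbers was 0.672 at the ends (0.598 to 0.753) and 0.751 in the interior (0.730 to 0.772), and these intervals overlap.

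Among stronger peaks the ratio at chromosome ends came close to that of the interior. A −log10 q of at least 2 was reached by 24.5% of the whole H3.1-K27M list and 41.9% of the whole H3.1-WT list. At this minimum there were 205 and 441 peaks at the ends, a ratio of 0.465 against 0.596 in the interior. Within light bands the ratio was 0.467 at the ends and 0.482 in the interior. At 3, reached by 6.75% and 18.9% of the whole lists, there were 98 and 256 peaks, a ratio of 0.383 against 0.375. For strong peaks the ratio was 0.345 (0.234 to 0.498) against 0.303 (0.275 to 0.334). At 10, reached by 0.408% and 2.37% of the whole lists, there were 12 and 54 peaks, a ratio of 0.222 against 0.196. For strong peaks the intervals of ends and interior overlapped.

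The count of peaks changed with distance from the end. In the outermost 0.5 Mb of the 37 ends together, the lists held 85 peaks in H3.1-K27M cells and 144 in H3.1-WT, with a ratio of 0.590 (0.446 to 0.777). From 0.5 to 1 Mb there were 94 and 184, a ratio of 0.511 (0.394 to 0.658). From 1 to 1.5 Mb there were 155 and 225, a ratio of 0.689 (0.558 to 0.849). From 1.5 to 2 Mb there were 205 and 239, a ratio of 0.858 (0.708 to 1.04). Beyond the limit, from 2 to 2.5 Mb, the lists held 242 and 247 peaks, a ratio of 0.980 (0.817 to 1.17). Between 2.5 and 10 Mb the 15 bins of 0.5 Mb had ratios from 0.828 to 1.17. Both lists therefore thinned out toward the ends, and the H3.1-K27M list did so more. The outermost bin includes assembly gaps and duplicated sequence, whose extent was not measured here. Without 22q, the end with the most peaks, the 4 ratios inside the limit were 0.600, 0.514, 0.670 and 0.782.

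Strong peaks followed a different course along the same axis. In H3.1-K27M they numbered 9, 11, 15 and 5 in the 4 successive bins from the end, and 6 in the bin from 2 to 2.5 Mb. In H3.1-WT they numbered 20, 30, 39 and 27, and then 19. Both lists had the most strong peaks between 1 and 1.5 Mb from the end, at 0.811 and 2.11 per Mb. No other bin up to 10 Mb had more than 11 strong peaks in H3.1-K27M or more than 30 in H3.1-WT.

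**Figure D2:**
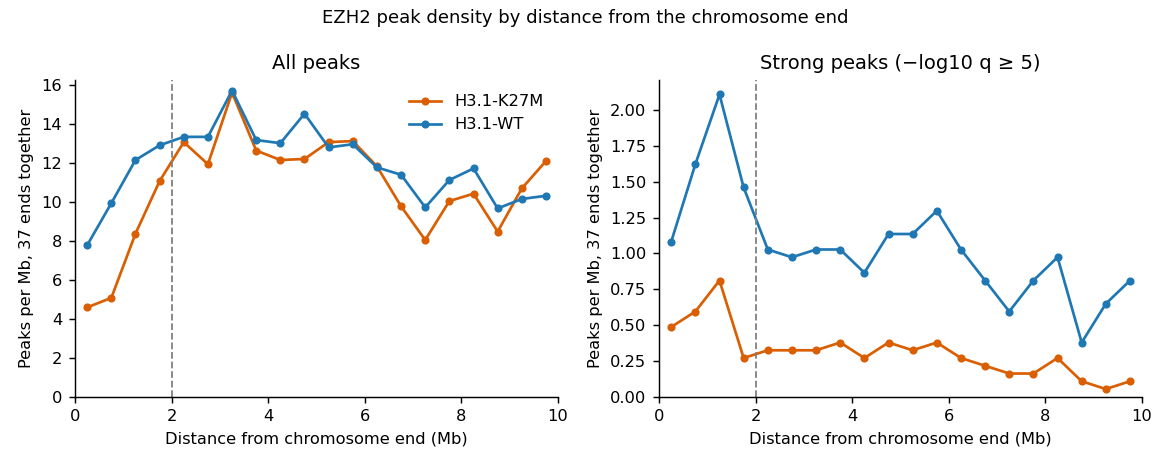
Peaks per Mb (vertical axis) in bins of 0.5 Mb by distance from the chromosome end (horizontal axis), with 37 ends pooled, for all peaks (left) and strong peaks (right). Orange is H3.1-K27M, blue H3.1-WT, and the dashed line is the 2 Mb limit. Over all peaks both lists are lowest in the outermost bin, at 4.59 and 7.78 per Mb, while strong peaks reach their highest density between 1 and 1.5 Mb.

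At 5p and 22q peaks lay close to the limit of 2 Mb on both sides. The nearest H3.1-K27M peaks inside it lay 1.999 Mb from the end in 18q23 (fold enrichment 3.13) and 1.995 Mb in both 5p15.33 (4.20) and 22q13.32 (4.85). The nearest outside lay in 5p15.33 at 2.0004 and 2.004 Mb (4.34 and 3.76) and in 22q13.32 at 2.001 Mb (3.502). For H3.1-WT the nearest inside lay in 5p15.33 (fold enrichment 3.30), 21q22.3 (4.001) and 22q13.32 (2.96), and the nearest outside in 22q13.32 (3.44), 11q25 (3.45) and 12q24.33 (3.42). Fold enrichment thus spread from 2.96 to 4.85 just inside the limit and from 3.42 to 4.34 just outside it.

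Chromosome ends differed widely in how much EZH2 signal was called. Per window of 2 Mb, the H3.1-K27M list had from 0 to 76 peaks with a median of 10, and the H3.1-WT list from 0 to 79 with a median of 19. Covered length had medians of 12.2 kb in H3.1-K27M and 26.25 kb in H3.1-WT. The lists ranked the ends alike, with a Spearman correlation of 0.795 and a Pearson correlation of 0.910 between the 37 pairs of peak numbers. Without 22q these were 0.778 and 0.803. The correlations describe sites that share a genome and a caller and carry no p. The H3.1-K27M list had fewer peaks at 32 ends, as many at 7q and more at 3 ends, and 1q had none in either list. Strong peaks were fewer at 31 ends, equal at 6 and more at none. The 6 were 9p (2 in each list), 8p (1 in each) and 12p, 3q, 21q and 1q, which had no strong peak. Short-arm and long-arm ends had similar ratios of peak numbers, 0.714 over 16 ends and 0.657 over 21 ends.

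The end of 22q carried by far the most peaks. It held 76 peaks covering 131 kb in H3.1-K27M and 79 peaks covering 114 kb in H3.1-WT, which was 14.1% and 9.97% of all peaks at the ends. It lies in 22q13.32 and 22q13.33. The latter band holds SHANK3 (a scaffold protein of excitatory synapses), whose distance from these peaks was not measured here. Nearly all of these peaks lay between 1 and 2 Mb from the end, 25 and 31 in the outer 0.5 Mb of that stretch and 47 and 37 in the inner. Strong were 2 of the 76 and 7 of the 79, beside 1.87% and 6.78% of the whole lists. No strong peak of either list lay between 1.5 and 2 Mb. Among the 5 widest H3.1-K27M peaks at any end, those at 49704958 to 49716709 (11752 bases) and 49615368 to 49623467 (8100 bases) of chromosome 22 lay in this run. Their fold enrichments were 4.19 and 3.76, and H3.1-WT peaks covered 8873 and 5296 of their bases.

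The next ends by covered length were 7q with 52.5 kb in H3.1-K27M and 52.9 kb in H3.1-WT, 5p with 37.6 and 64.2 kb, 18p with 55.9 and 40.5 kb, 20q with 37.1 and 56.1 kb, and 18q with 23.9 and 48.1 kb. The end of 7q is where PTPRN2 (a receptor-type phosphatase of secretory granules) and VIPR2 (a neuropeptide receptor) lie. It had 38 peaks in both lists, of which 1 and 5 were strong, beside 1.87% and 6.78% of the whole lists. The end of 20q is home of SOX18 (a factor of vessel development) and GATA5 (a zinc finger factor of heart and gut). It had the most strong peaks in H3.1-WT, 12 of 33, against 3 of 24 in H3.1-K27M. At a −log10 q of at least 10 it had 2 peaks in H3.1-K27M cells and 8 in H3.1-WT, beside 0.408% and 2.37% of the whole lists. The end of 5p followed with 2 strong peaks of 34 in H3.1-K27M cells and 10 of 43 in H3.1-WT. Strong peaks were also fewer in H3.1-K27M in the interior, 549 against 1809.

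**Figure D3:**
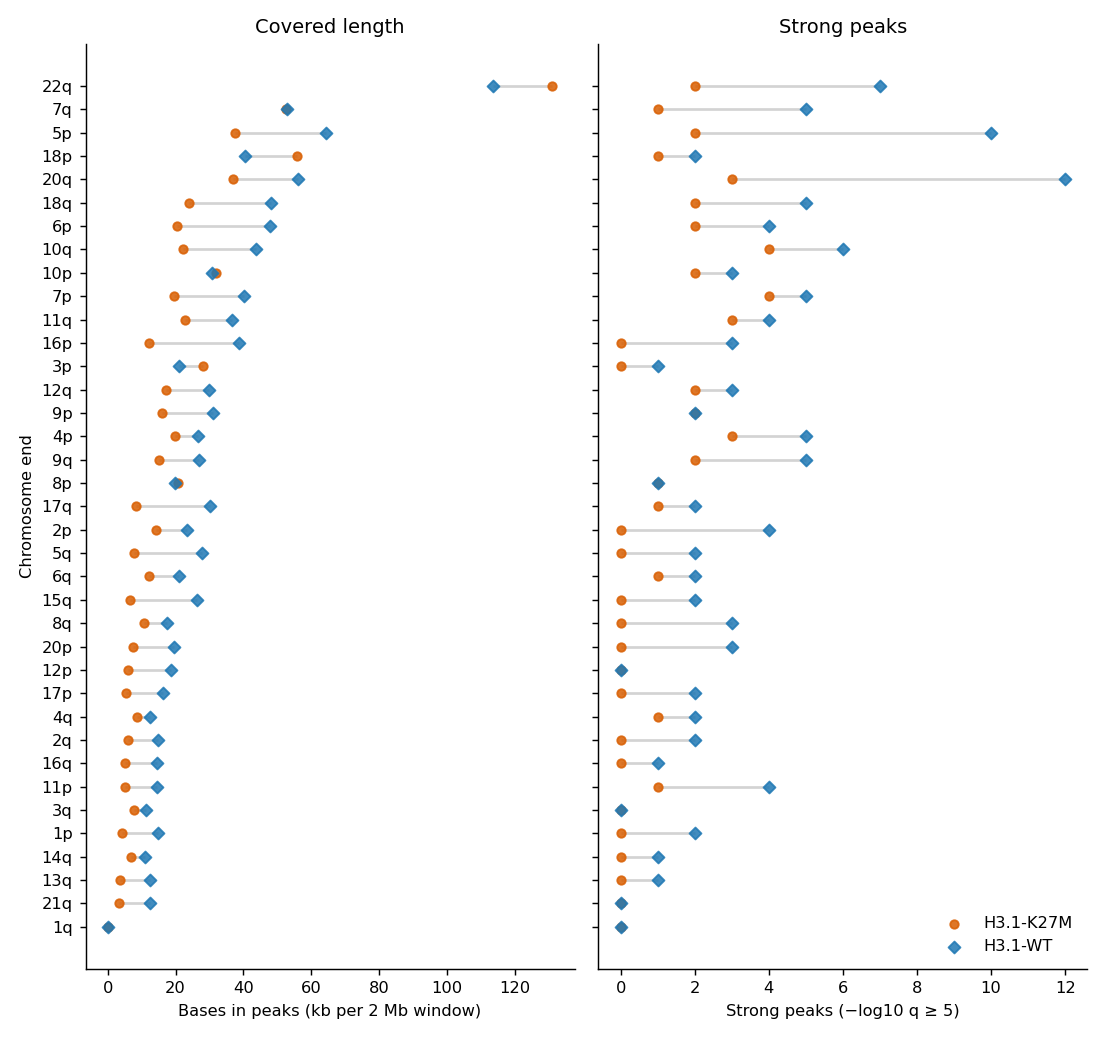
Kilobases in peaks (left) and number of strong peaks (right) in the 2 Mb window at each of the 37 chromosome ends, ordered down the page by mean covered length. Orange circles are H3.1-K27M and blue diamonds H3.1-WT, with 1 library each, so there is no error bar. At 22q the lists cover 131 and 114 kb, and at no end does H3.1-K27M have more strong peaks.

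The ratio of covered length spread from 0.250 at 15q to 1.38 at 18p. At 15q the H3.1-K27M list had 7 peaks covering 6.57 kb and the H3.1-WT list 23 covering 26.25 kb. At 18p it was 38 peaks against 29, and 55.9 kb against 40.5 kb. The surplus at 18p lay between 1.5 and 2 Mb from the end, with 19 H3.1-K27M peaks and 3 H3.1-WT peaks there, and 1 of the 19 was overlapped by an H3.1-WT peak, against 31.6% of the whole H3.1-K27M list. None of these 19 was strong, beside 1.87% of the whole H3.1-K27M list, so their lack says little. With 3 H3.1-WT peaks in that stretch, few of the 19 could be overlapped. More was also covered in H3.1-K27M at 3p (28.1 kb against 21.1 kb), 22q, 10p (32.0 kb against 30.7 kb) and 8p (20.8 kb against 20.0 kb), and less at 31 ends.

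The ends with the least covered length were 1q, 21q, 13q and 14q. The 21q window had 4 peaks in H3.1-K27M cells and 10 in H3.1-WT, the 13q window 5 and 13, and the 14q window 7 and 19. The 1q window had no peak in either list. The nearest peaks to the 1q end stopped 4.03 Mb from it in H3.1-K27M and 3.93 Mb in H3.1-WT. This was the longest stretch without a peak of either list that touched no centromeric, variable or stalk band on the 21 chromosomes, and the next longest was 2.05 Mb, on chromosome 7. The level of HRP and EZH2 reads there was not measured here.

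**Figure D4:**
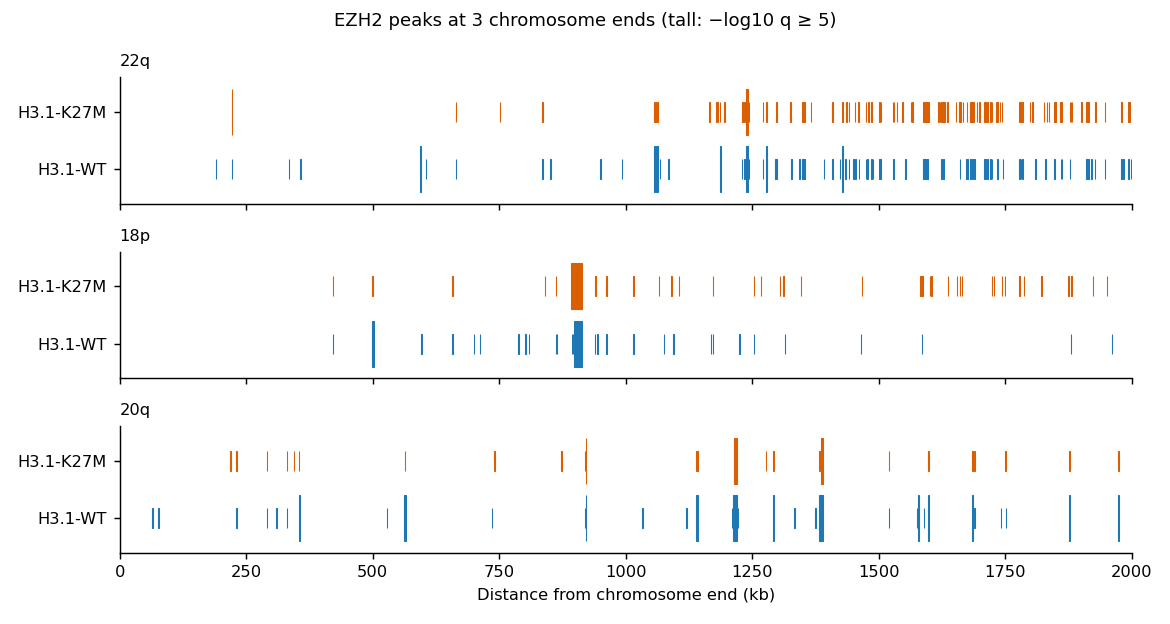
Every peak in the windows of 22q, 18p and 20q by distance from the chromosome end (horizontal axis, kb), H3.1-K27M above H3.1-WT in each panel. Bar length is peak width, and tall bars are strong peaks. At 22q short bars crowd between 1 and 2 Mb, at 18p a single wide peak stands near 900 kb in both lists, and at 20q strong peaks are spread over H3.1-WT.

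The peaks of highest fold enrichment at chromosome ends were mostly shared by the lists. The 5 of highest fold enrichment in H3.1-WT all met a peak of H3.1-K27M. So did 96.3% of all H3.1-WT peaks at the ends with a −log10 q of at least 10, and 98.7% of those in the interior. Of the 5, 3, in 20q13.33, 18p11.32 and 10q26.3, were also among the 5 highest of H3.1-K27M. Fold enrichments of the lists depend on each library, so they are given as positions within each list. Ranks from lists of unequal length show no change.

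The 20q13.33 peak had the highest fold enrichment at H3.1-WT ends. In H3.1-K27M it spanned 61804928 to 61811818 of chromosome 20 (6891 bases, fold enrichment 8.79, rank 5 of 539), and in H3.1-WT 61804675 to 61813081 (8407 bases, 15.4, rank 1 of 792). It lay 1217 kb from the chromosome end. In 18p11.32, the band of ADCYAP1, the H3.1-K27M peak at 891978 to 914253 of chromosome 18 was the widest at any end in that list (22276 bases, fold enrichment 9.32, rank 4). The H3.1-WT peak at 898331 to 913308 was the widest of its list too (14978 bases, 15.1, rank 3) and lay wholly within it. In 10q26.3, where NKX6-2 (a homeobox factor of neural tube and glia) lies, the peak was at 134598611 to 134602662 of chromosome 10 in H3.1-K27M (4052 bases, 11.1, rank 2) and at 134596267 to 134603112 in H3.1-WT (6846 bases, 14.6, rank 4).

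The bands of the forkhead, Iroquois and DMRT genes had a peak in both lists, and 36 of the 37 ends had peaks in both. In 6p25.3 the H3.1-K27M peak at 1310782 to 1315989 of chromosome 6 had a fold enrichment of 6.77 (rank 14), and the H3.1-WT peak at 1309319 to 1316860 had 15.328 (rank 2). In 5p15.33 the H3.1-K27M peak at 1881612 to 1884759 of chromosome 5 had 8.35 (rank 7), and the H3.1-WT peak at 1881977 to 1889619 had 14.5 (rank 5). In 9p24.3, the band of DMRT1, DMRT3 and DMRT2 in that order, peaks at 840535 to 844633 and at 840844 to 844894 of chromosome 9 had 8.38 in H3.1-K27M cells and 13.9 in H3.1-WT, rank 6 in both. All 3 sites thus had a strong peak in both lists, but they were picked for their high H3.1-WT rank. At a −log10 q of at least 10, 96.3% of H3.1-WT peaks at the ends met an H3.1-K27M peak. In the interior 98.7% did, so the match is no result about these genes.

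The H3.1-K27M peaks ranked 1 and 3 by fold enrichment were less wide than those in 20q13.33, 18p11.32 and 10q26.3, though wider than the median of 788 bases. In 4p16.3 the peak at 1421233 to 1423073 of chromosome 4 measured 1841 bases in H3.1-K27M, and its fold enrichment was 12.2 and its −log10 q 62.3. The H3.1-WT peak there was 1554 bases wide, with 7.71 and 22.4, rank 30. In 7p22.3 the H3.1-K27M peak at 945012 to 946282 of chromosome 7 measured 1271 bases and had a fold enrichment of 11.01, and the H3.1-WT peak was 1585 bases wide with 8.90, rank 18. This 4p16.3 peak had its midpoint 1422 kb from the end. At 1402 kb, a broad peak in the band of NKX1-1 (a homeobox factor) spanned 1395773 to 1407872 in H3.1-K27M (12100 bases, fold enrichment 6.75) and 1395628 to 1405856 in H3.1-WT (10229 bases, 8.52). By width it ranked 2 at the ends in H3.1-K27M cells and 3 in H3.1-WT.

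Other wide peaks completed the 5 widest of each list. In H3.1-K27M, beside those in 18p11.32, 4p16.3 and 22q13.33, a peak in 10p15.3 spanned 1775703 to 1783986 of chromosome 10 (8284 bases, fold enrichment 5.22). In H3.1-WT the others lay in 18q23, the band of SALL3 (a zinc finger factor of limb and nerve development), at 76734158 to 76746386 of chromosome 18 (12229 bases, 5.81), in 9p24.3, which also holds FOXD4 (a forkhead factor), at 109035 to 119054 of chromosome 9 (10020 bases, 8.70) and in 3p26.3 at 233423 to 243127 of chromosome 3 (9705 bases, 6.98). H3.1-K27M peaks covered 6938, 7381 and 4582 bases of these 3.

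A few strong peaks had low fold enrichment. Under a fold enrichment of 4 there were 4 strong H3.1-K27M peaks and 3 strong H3.1-WT peaks, a group picked after its values were seen. The peak nearest the 7p end, about 24 kb from it, had a −log10 q of 9.997 with a fold enrichment of 2.59 in H3.1-K27M, the lowest of all 539, and 7.82 with 2.72 in H3.1-WT. It was 407 and 437 bases wide. In 4q35.2, a band known for a tandem repeat array close to the telomere, the H3.1-K27M peak at 190970545 to 190972242 of chromosome 4 had a −log10 q of 8.58 with a fold enrichment of 3.598, and the H3.1-WT peak at 190970742 to 190971150 had 10.6 with 3.32. No filter for repeats or poorly mapped sequence was applied here, and its part in these calls was not tested.

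The last comparison asked how far the lists shared their peaks at the ends. H3.1-K27M peaks there were more often met by an H3.1-WT peak than those of the interior. Of 539 H3.1-K27M peaks 321 were overlapped by at least 1 base, 59.6% (95% Wilson interval 55.4% to 63.6%), against 34.4% in the interior (33.8% to 34.9%) and 31.6% in the whole list. Within light bands the shares were 60.9% at the ends (56.5% to 65.1%) and 42.8% in the interior (41.8% to 43.9%). Of 792 H3.1-WT peaks 313 were overlapped, 39.5% (36.2% to 43.0%), against 34.4% in the interior (33.8% to 34.97%) and 36% in the whole list. Within light bands the H3.1-WT shares were 39.8% at the ends (36.4% to 43.4%) and 32.2% in the interior (31.3% to 33.02%).

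Split by strength, the gap in H3.1-K27M was in the classes below a −log10 q of 5. The classes count all bands. Over all H3.1-K27M peaks, the interior share was 34.4% in all bands and 42.8% in light bands, so the class gaps may be smaller there. Among H3.1-K27M peaks with a −log10 q from 1 to 1.5, 39.7% of 179 were overlapped at the ends (32.8% to 47.0%) and 20.1% of 11856 in the interior. From 1.5 to 2 it was 56.8% of 155 (48.9% to 64.3%) against 32.5%, from 2 to 3 it was 64.5% of 107 (55.1% to 72.9%) against 52.8%, and from 3 to 5 it was 93.1% of 58 (83.6% to 97.3%) against 79.1%. Strong H3.1-K27M peaks were overlapped in 39 of 40 cases at the ends, 97.5% (87.1% to 99.6%), against 96.0% in the interior. A share that high in the interior leaves little room for a gap. The shares of H3.1-WT peaks at the ends lay within 5 percentage points of the interior in each class. They ran from 16.02% against 20.999% in the weakest class to 96.3% against 98.7% at a −log10 q of at least 10. Only from 2 to 3 was the share higher at the ends, 37.3% against 36.4%. The higher share of all H3.1-WT peaks at the ends was thus not seen in the other classes.

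**Figure D5:**
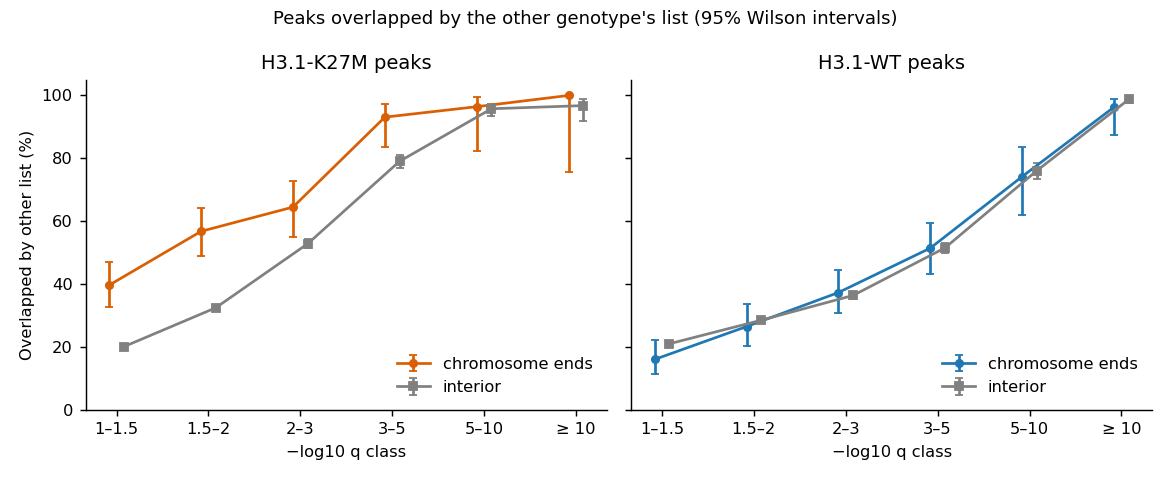
Share of peaks overlapped by the other list (vertical axis, %) by class of −log10 q (horizontal axis), for H3.1-K27M peaks (left) and H3.1-WT peaks (right). Coloured circles are chromosome ends, grey squares the interior, and bars 95% Wilson intervals, with all bands counted. On the left the ends lie above the interior up to a −log10 q of 5, with 39.7% against 20.1% in the weakest class, and on the right the values run together.

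Merging both lists gave 996 regions at the ends. Peaks of both genotypes were present in 30.0% of them (27.3% to 32.9%), against 20.2% of interior regions. H3.1-K27M alone held 21.9% at the ends and 39.8% in the interior, and H3.1-WT alone held 48.1% and 40.1%. The median width was 2041 bases for regions with both genotypes, 571 for H3.1-K27M alone and 633 for H3.1-WT alone. Bases covered in both lists made up 31.3% of those covered in either at the ends and 18.8% in the interior. They were 60.1% of the bases in H3.1-K27M peaks and 39.5% of those in H3.1-WT peaks at the ends.

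The highest fold enrichment of H3.1-K27M alone was 5.81, in 10p15.3 (chromosome 10, 1505670 to 1505938, 269 bases), the only strong H3.1-K27M peak at the ends with no H3.1-WT peak. It was followed by regions in 7p22.3 (4.996), 7q36.3 (157516811 to 157519886 of chromosome 7, 3076 bases, 4.996), 5p15.33 (4.49) and 8p23.3 (4.44). Of H3.1-WT alone the highest were in 13q34 (chromosome 13, 113260468 to 113260762, 295 bases, 7.46) and 5p15.33 (chromosome 5, 1008666 to 1010509, 1844 bases, 6.73). Both reached a −log10 q of 10, and of 54 such H3.1-WT peaks these 2 met no H3.1-K27M peak. The next were in 7q36.3 (5.81), 1p36.33 (5.76) and 11p15.5 (5.61). In all, 18 of 116 strong H3.1-WT peaks at the ends had no H3.1-K27M peak, and the share overlapped, 84.5% (76.8% to 90.0%), was close to the 84.0% of the interior.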

How the data were processed

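CUT&RUN for EZH2 was measured in 2 libraries of HEK293 cells, 1 per genotype, each with an HRP control library. Bowtie2 2.3.5.1, MACS2, Picard, cutadapt, deepTools and hg19 are named, without roles or parameters, in the submitters' processing notes. The authors deposited 1 broad peak list per genotype, called on single libraries. Each peak has a deposited fold enrichment, a ratio of the EZH2 library to the caller's background, and a deposited −log10 q value, at least about 1. How libraries were scaled to each other was not given in the sources used here.

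Peaks were assigned by midpoint to windows of 2 Mb at 37 ends, with chromosome lengths from GenomeInfoDb 1.38.1, and 0 peaks ended past an hg19 end. Giemsa bands came from circlize 0.4.16. Gaps were not subtracted from the 74 Mb of windows or the 2748 Mb of interior. Overlap needed 1 base. Positions are 1-based. Wilson and conditional exact intervals are at 95%. Overlap was tested on simulated lists of 20000 peaks, with 0 disagreements with bedtools 2.31.1. Membership in the windows was compared there with a direct count by the same midpoint rule, without bedtools. Analysis used Python 3.11.15, pandas 2.3.3, numpy 2.4.6, scipy 1.17.1, matplotlib 3.10.9 and R 4.3.3.

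The members, lists and thresholds were chosen with earlier results of these data known. Named were the 6 ends with the largest and the 4 with the smallest covered length, the ends with the highest and lowest ratio, the 5 widest and 5 highest-fold peaks per list, the 5 highest-fold regions of each single genotype and the peaks beside the limit. The 9p24.3 peak ranked sixth, the strong peaks of low fold enrichment, the ends with more covered length in H3.1-K27M and the profiles of single ends were added after their values were seen. Promoters with a peak and the gene lists, which need an hg19 annotation, were not analysed here.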

Additional observations from a re-analysis of the deposited data

How the results depend on the processing

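Unknown depth limits every comparison of the lists, and assembly gaps in the windows were not measured. Shares of peaks or regions and ratios of peak numbers were taken as moved when they left their 95% interval, other ratios when they changed by more than 1.5 times. Of the settings other than leaving out an end, 43 values stayed, 37 moved and 5 reversed. By construction a higher minimum leaves fewer peaks; beyond that, the cause was not tested.

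With −log10 q held to at least 2, 3 and 5, the ratio of peak numbers was 0.465, 0.383 and 0.345, and at 10 it was 0.222, a minimum chosen after seeing the data. With windows of 1, 3 and 5 Mb it was 0.546, 0.779 and 0.848. The ratio of covered length moved to 0.385 at a minimum of 5. The H3.1-K27M density quotient reversed to 1.12, 1.90 and 2.71 at minimums of 2, 3 and 5 and to 1.09 with windows of 5 Mb, and moved to 0.488 with 1 Mb. The H3.1-WT quotient moved to 1.86 and 2.38 at 3 and 5, and reversed to 0.885 with windows of 1 Mb. Without centromeric, variable and stalk bands, an interior chosen after seeing the data, the quotients were 0.690 and 1.01.

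At minimums of 2, 3 and 5 on both lists, the overlapped share was 71.2%, 82.7% and 87.5% of H3.1-K27M peaks and 32.4%, 32.03% and 31.03% of H3.1-WT peaks. With windows of 1, 3 and 5 Mb the H3.1-K27M share was 68.2%, 52.2% and 46.8%, and with 1 Mb the H3.1-WT share was 35.1%. A reciprocal overlap of 50% gave 27.6% and 18.8%, and equal list lengths gave 63.9% in H3.1-K27M. At minimums of 2, 3 and 5, regions of H3.1-K27M alone made up 11.9%, 6.27% and 4.17%, and those of H3.1-WT alone 60.2%, 64.2% and 66.7%. With windows of 1, 3 and 5 Mb these were 14.9%, 27.5% and 31.5%, and 55.6%, 44.2% and 42.07%. Regions with both made up 26.4% with 5 Mb. None of these shares was computed for the interior under the same setting, so they cannot be called particular to the ends. For strong peaks the ratio of peak numbers was 0.345 at the ends and 0.303 in the interior.

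Leaving out each end in turn gave ratios of peak numbers from 0.649 (without 22q) to 0.692, of covered length from 0.598 (without 22q) to 0.669, and of strong peaks from 0.324 (without 7p) to 0.358. Alternatives for promoters were not run. No paired analysis was possible because there is 1 EZH2 library per genotype.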
